A study of Mus musculus with 32 samples.

Results

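The 231 contacts described here join a promoter fragment of Ciita, on mouse chromosome 16, to a DpnII restriction fragment on another chromosome. They were chosen by their read counts: a pair was kept where the other fragment lay on a different chromosome, was not itself a bait, and had 10 or more reads summed over both deposited tables. Of 6871 such Ciita pairs listed, 231 (3.36%) reached 10 reads. They are 231 of the 3673 pairs with 10 or more reads in the series, and of 30435 pairs listed in all. Ciita had 3 baits: Ciita_1 (positions 10479663 to 10480580 of chromosome 16, build mm10) gave 54 of the pairs, Ciita_2 (10486858 to 10489086) gave 99 and Ciita_3 (10489551 to 10489878) gave 78.

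The material was organoids, epithelial cultures grown from the small intestine of aged C57BL/6JRj mice, 20 to 22 months old per the series' design text. Organoids received interferon gamma (IFNγ) at 500 pg/ml in growth medium for 3 hours, or medium alone for the same time. The 32 samples were 8 libraries sequenced on 4 lanes each; either treatment had 4 libraries, from the same 2 mice (O76 and O77) at 2 passages per mouse. Each table has 4 count columns that name neither mouse nor passage, and the samples' descriptions pair each table with the treatment opposite to the one in its file name. Neither table is therefore assigned to a treatment: they are called control-named and IFNγ-named, and differences are given as IFNγ-named minus control-named, with the opposite sign under the opposite subtraction. With 2 mice behind 4 libraries, p-values over libraries measure the spread between cultures and passages more than between animals. Contact counts hold no RNA, so the labelled cell type could not be checked against marker genes.

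CIITA is the transactivator that switches on the genes of MHC class II, the molecules that present antigen to CD4+ T cells. Its gene has alternative promoters, one of which is known to respond to IFNγ, and intestinal epithelium is known to raise class II on exposure to that cytokine. In Capture-C, chromatin is crosslinked, cut with DpnII at GATC, ligated and enriched for chosen baits, and a read joining 2 fragments counts as a contact. Within a nucleus most contacts are known to lie along one chromosome, and those between chromosomes are spread thinly over the genome.

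These 5 partner fragments are shown because they span the range of the data: an uneven pair at a start site (Il7r), a pair held almost wholly by 1 library (Trio), a pair that was even over the libraries (Jpt2), an even pair with more reads (Met), and the fragment within the class II gene cluster. All are GRCm38 sequence on the plus strand, and capitals mark the GATC sites at which DpnII cuts. The Il7r, Trio and Jpt2 fragments are whole, with the site that ends them. Of the Met fragment (346 bp) and the class II fragment (1066 bp), the first 300 bases are given. The Il7r sequence (chr15:9529364-9529605) lies in an intron, 165 bp from the start site of Il7r (ENSMUSG00000003882.5), the interleukin-7 receptor alpha chain. The Trio sequence (chr15:27996016-27996245) lies in an intron 0.653 kb from a start site of Trio, a guanine nucleotide exchange factor. The Jpt2 sequence (chr17:24953491-24953776) is intronic, and the Met sequence (chr6:17519263-17519562) lies in an intron of Met, the receptor of hepatocyte growth factor, 15.4 kb from its start site. The class II sequence (chr17:34235428-34235727) is intergenic, and its fragment lies 2.41 kb from the nearest protein-coding start site, that of H2-Ob.
Il7r: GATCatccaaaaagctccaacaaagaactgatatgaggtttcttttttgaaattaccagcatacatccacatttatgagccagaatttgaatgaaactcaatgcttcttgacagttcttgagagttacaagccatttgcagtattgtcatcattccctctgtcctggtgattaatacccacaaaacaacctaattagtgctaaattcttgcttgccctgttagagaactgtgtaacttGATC
Trio: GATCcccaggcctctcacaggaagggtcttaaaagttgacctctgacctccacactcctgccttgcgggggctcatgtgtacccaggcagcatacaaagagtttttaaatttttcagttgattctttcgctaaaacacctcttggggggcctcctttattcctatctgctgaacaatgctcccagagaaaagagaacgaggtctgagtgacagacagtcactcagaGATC
Jpt2: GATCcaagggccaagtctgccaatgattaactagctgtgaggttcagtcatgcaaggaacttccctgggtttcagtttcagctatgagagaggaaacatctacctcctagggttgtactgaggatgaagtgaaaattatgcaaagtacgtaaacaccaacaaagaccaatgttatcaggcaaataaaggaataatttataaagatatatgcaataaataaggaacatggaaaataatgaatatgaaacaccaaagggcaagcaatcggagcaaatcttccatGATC
Met: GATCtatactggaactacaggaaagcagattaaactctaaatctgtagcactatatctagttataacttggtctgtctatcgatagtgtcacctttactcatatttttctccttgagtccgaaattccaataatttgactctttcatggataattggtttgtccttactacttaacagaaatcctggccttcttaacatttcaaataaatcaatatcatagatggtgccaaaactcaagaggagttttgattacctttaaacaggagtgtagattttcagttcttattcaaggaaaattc
class II: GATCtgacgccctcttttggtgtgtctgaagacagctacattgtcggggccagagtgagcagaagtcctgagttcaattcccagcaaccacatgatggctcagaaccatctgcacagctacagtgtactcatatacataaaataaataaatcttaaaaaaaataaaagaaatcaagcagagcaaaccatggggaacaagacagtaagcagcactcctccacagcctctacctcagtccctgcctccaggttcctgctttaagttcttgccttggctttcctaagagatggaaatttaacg
The Il7r fragment was 37.0% GC and the Met fragment 35.3%, against 48.7% for Trio.

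Most Ciita contacts with other chromosomes rested on a single read, and most of the reads lay in the few pairs that reached 10. Of the 6871 pairs, 6263 (91.2%) had 1 read and 377 had 2 to 9. The 231 pairs held 18655 of 25892 reads (72.0%), with a lowest count of 10, a median of 74 and a highest of 230. Just inside the threshold lay 3 pairs with 10 reads, and just outside it 3 pairs with 9 and 2 pairs with 8. The distribution was alike for the 3 baits: the median was 66.5 reads for Ciita_1, 68 for Ciita_2 and 82.5 for Ciita_3. All libraries held between 23037 and 37290 reads over all baits, and between 2387 and 3699 reads of Ciita with other chromosomes, of which the 231 pairs took 67.7% to 78.7%.

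The first comparison asked how much of each Ciita bait's signal went to other chromosomes, and whether that differed between the tables. Bait Ciita_2 sent 32.1%, 31.7%, 42.8% and 34.5% of its reads to other chromosomes in the control-named libraries and 37.3%, 40.3%, 40.8% and 42.2% in the IFNγ-named libraries. The groups overlapped, because the third control-named library was the highest of all 8. The means were 35.3% ± 5.18 and 40.2% ± 2.07 (SD, n = 4 each), a difference of 4.85 percentage points (two-sided exact permutation p = 0.143, 0.429 after adjustment over the 3 baits). Ciita_1 gave 37.5% ± 6.99 and 40.6% ± 2.50 (SD, n = 4 each), with exact permutation p = 0.457 and adjusted p = 0.6. Ciita_3 gave 33.3% ± 3.00 and 35.6% ± 7.48 (SD, n = 4 each), with exact permutation p = 0.6 and adjusted p = 0.6. The tables overlapped for all 3 baits and no difference passed the test. Without control-named replicate 3 the Ciita_2 difference was 7.37 points (exact permutation p = 0.0571, the smallest that 3 against 4 libraries can give; 0.171 adjusted over the baits), and with each library left out in turn its adjusted p ran from 0.171 to 0.857. A test of 4 against 4 libraries cannot give a p under 0.0286.

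**Figure D1:**
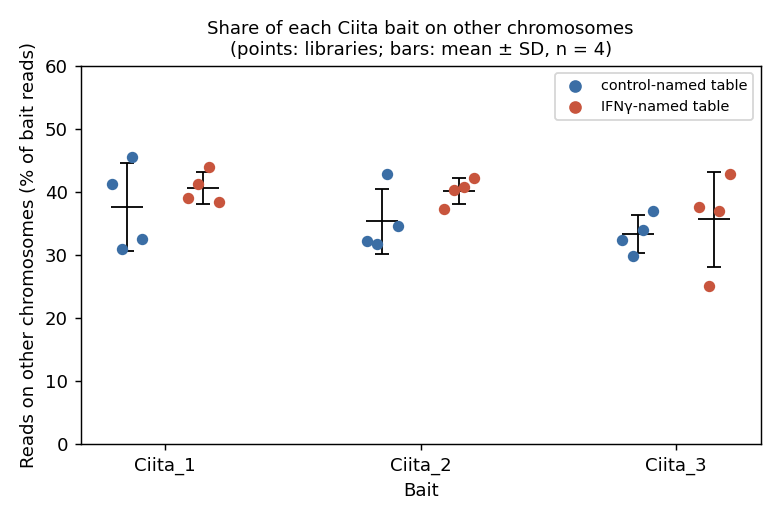
Percent of each bait's reads that joined a fragment on another chromosome (y axis) for the 3 Ciita baits (x axis), one point per library, with mean ± SD (n = 4). The points of both tables overlap for every bait, as for Ciita_2, where the control-named libraries run from 31.7% to 42.8% and the IFNγ-named ones from 37.3% to 42.2%.

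Taken over the 3 baits, Ciita sent 37.5% ± 4.09 (SD, n = 8 libraries) of its reads to other chromosomes and the 11 other baits 34.8% ± 1.70. Here and in the ranks below, the total leaves out pairs between baits, which changes the shares slightly. Ciita_1 in control-named library 1 stands at 41.6% by this measure and at 41.3% by that of the preceding comparison. Ciita was higher in 7 of 8 libraries, by 2.65 percentage points, which did not pass an exact sign-flip test over libraries (two-sided permutation p = 0.0547; the smallest possible is 0.0078). This comparison was chosen after seeing the data. Without control-named replicate 2, the library in which Ciita was not higher, the difference was 3.30 with an exact permutation p = 0.0156. That is the smallest p that 7 libraries can give, and it follows from removing the contrary library. Leaving out each of the other 7 libraries gave 2.02 to 2.99 points, with exact permutation p from 0.0625 to 0.109. Among the 14 baits, Ciita_1 ranked 3rd, Ciita_2 5th and Ciita_3 6th.

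The 231 partner fragments were spread over every chromosome but Y. Chromosome 5 held the most (21), followed by chromosomes 6 and 15 with 19 each, and chromosome 3 the fewest of those with any (4). Per 100000 DpnII fragments, chromosome 15 led with 9.94 (95% Poisson interval 5.98 to 15.5), against 4.71 over all chromosomes but 16. Chromosome 5 followed with 7.45 (4.61 to 11.4), and chromosome 18 with 7.27 (3.76 to 12.7). Chromosome 3 had 1.34 (0.366 to 3.44) and the X chromosome 2.46 (1.06 to 4.84). Chromosome Y had 0 of 182022 fragments, which allows up to 2.03 per 100000. Single-read pairs ran at 137 per 100000 fragments on chromosome 15, 133 on chromosome 3 and 47.2 on chromosome Y. The intervals of chromosomes 15, 3 and Y leave out the level over all chromosomes, but they cover counting error only, are not adjusted for 20 chromosomes, and treat pairs as independent. All 3 baits contributed to chromosome 15 (5, 8 and 6 pairs), whereas the 4 pairs on chromosome 3 all came from Ciita_2.

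**Figure D2:**
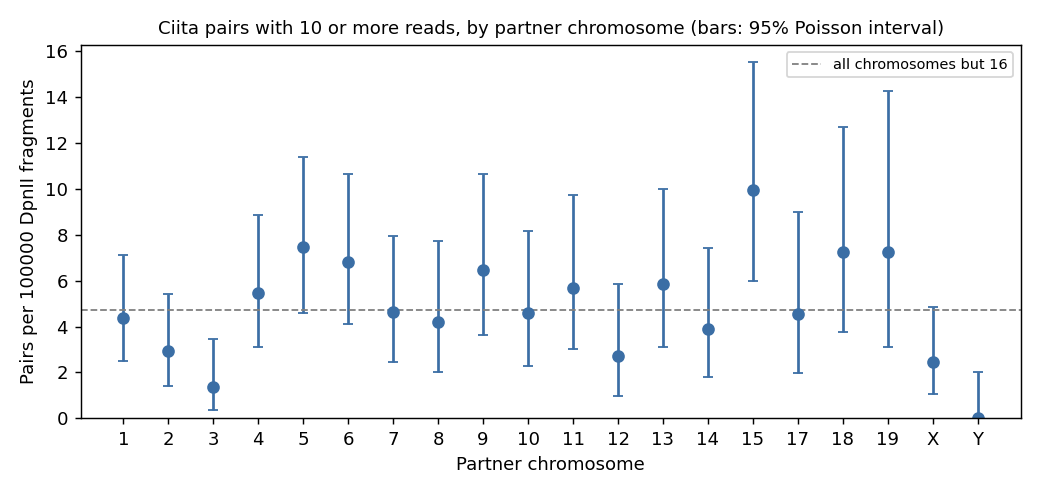
Ciita pairs with 10 or more reads per 100000 DpnII fragments (y axis) by partner chromosome (x axis), with 95% Poisson intervals; the dashed line is the level over all chromosomes but 16 (4.71). Chromosome 15 is the highest at 9.94 and chromosome 3 the lowest above 0 at 1.34.

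The share of Ciita's interchromosomal reads falling on each chromosome did not separate the tables. Of 19 chromosomes tested, the smallest p was that of chromosome 9 (two-sided exact permutation p = 0.0571), and the smallest adjusted p was 0.995. The shares of some chromosomes were set by single libraries. Chromosome 14 took 10.5% of the reads in IFNγ-named library 2 and at most 3.79% in the other IFNγ-named libraries. Chromosome 18 took 11.1% in control-named library 3 and at most 4.54% in the other control-named libraries.

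Partner fragments lay in genes more often than single-read partners or than DpnII fragments at large, and about as often as the partners of the other baits. Of the 231, 139 (60.2%, 95% Wilson interval 53.7 to 66.3) overlapped a gene, against 42.5% of 6248 single-read Ciita partners and 45.6% of 4899463 fragments off chromosome 16. The same measure was 57.4% (53.9 to 60.8) in the 793 pairs of the other baits with other chromosomes and 10 or more reads. By place, 106 of the 231 were intronic, 33 touched an exon and 92 were intergenic. Protein-coding genes were overlapped by 120 (51.9%), against 35.9% of single-read partners and 50.3% for the other baits. The intervals treat fragments as independent and cover counting error only.

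Repeat content moved with this measure. The median soft-masked share of the partner fragments was 20.5%, against 50.3% for single-read partners, 21.9% for the other baits' pairs and 27.5% for all fragments. Among fragments with under 25% masked, 58.0% of 131 partners overlapped a gene (49.5 to 66.1), against 54.2% of single-read partners and 55.2% of all fragments. Among those with 25% or more, the values were 63.0% of 100 partners (53.2 to 71.8), 38.4% and 37.0%. The part of repeat content in the gene overlap was not tested further.

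Start sites of transcription lay within 1 kb of 37 partners (16.0%, 11.8 to 21.3), against 6.66% of single-read partners and 7.30% of all fragments. Among fragments with under 25% masked, the share was 16.8% of partners (11.4 to 24.1) and 11.2% of single-read partners (9.78 to 12.8), so the intervals overlapped there. With 25% or more masked it was 15 of 100 partners (9.31 to 23.3%) and 5.05% (4.45 to 5.72). For the other baits the share was 10.8% (8.87 to 13.2), an interval that overlaps that of Ciita. Of the 37, 26 had a protein-coding start site and 11 one of another kind only (antisense, long noncoding, small RNA or pseudogene), and 10 held the site within the fragment. Ciita_1 gave 9 of them, Ciita_2 15 and Ciita_3 13, with 12 to 223 reads and a median of 71. Evenness over libraries moved with this share: it was 8.0% (4 of 50; 3.15 to 18.8) in partners whose top library held under 25% of the reads and 20.6% (20 of 97; 13.8 to 29.7) where it held over 50%. Those intervals overlap.

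**Figure D3:**
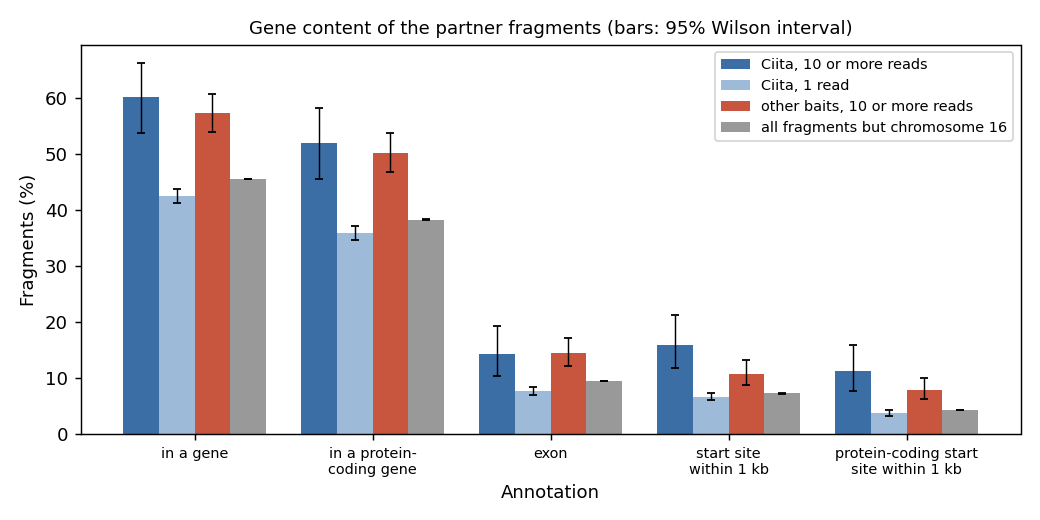
Percent of fragments (y axis) with each annotation (x axis) for the 231 Ciita partners, single-read Ciita partners, the 793 pairs of the other baits and all DpnII fragments off chromosome 16, with 95% Wilson intervals. Ciita partners sit above single-read partners in each class (60.2% against 42.5% in a gene) and their intervals overlap those of the other baits.

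The start-site partner with the most reads was that of Il7r, whose sequence is shown above. Bait Ciita_3 read it 19, 22, 10 and 108 times in the control-named libraries and 11, 17, 16 and 20 times in the IFNγ-named libraries. A single control-named library held 48.4% of its 223 reads, and the other 7 ranged from 10 to 22. The log2 difference was -1.34 (SE 0.81, edgeR adjusted p = 0.316). Derl1, which acts in the degradation of misfolded proteins at the endoplasmic reticulum, was read by the same bait 22, 31, 14 and 12 times in the control-named and 81, 17, 17 and 14 times in the IFNγ-named libraries. Here the high library was in the IFNγ-named table, and the log2 difference was 1.07 (SE 0.74, edgeR adjusted p = 0.354).

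Adgrl3, an adhesion G protein-coupled receptor, had a partner of Ciita_3 in an exon, 0.119 kb from a start site, with 91, 17, 5 and 9 control-named and 6, 3, 6 and 5 IFNγ-named reads. The Trio partner of Ciita_2 had 118 of its 128 reads in control-named library 4, and the other 7 libraries had 1 or 2 each. Exosc1, a subunit of the RNA exosome, and Zdhhc16 have start sites within 1 kb of 1 further partner of Ciita_2, with 8, 14, 7 and 6 control-named and 62, 12, 4 and 5 IFNγ-named reads. In all 5 of these most-read protein-coding start sites, 1 library stood above the other 7.

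Unevenness of this kind ran through the set. The library with the most reads held a median of 45.9% of a pair's reads, where an even pair would give 12.5%. In 97 pairs (42.0%) 1 library held over 50%, in 84 it held 25 to 50%, and in 50 (21.6%) under 25%. The other baits gave almost the same share over 50%, 41.4% of 793. In the 36 pairs whose top library held over 80%, that library had 12 to 118 reads, and the second highest had 0 to 4. Of the 252 counts in the other 7 libraries of those pairs, 186 (73.8%) were exactly 1 and 15 were 0. A read in all 8 libraries was seen for 214 of the 231 pairs, of which 73 had a library at exactly 1; whether single reads were carried over between libraries was not tested. Of the 231, 173 (74.9%) still had 10 or more reads once their top library was left out. Every library was the top library of some pairs, from 14 pairs (control-named library 4) to 39 (control-named libraries 1 and 2).

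**Figure D4:**
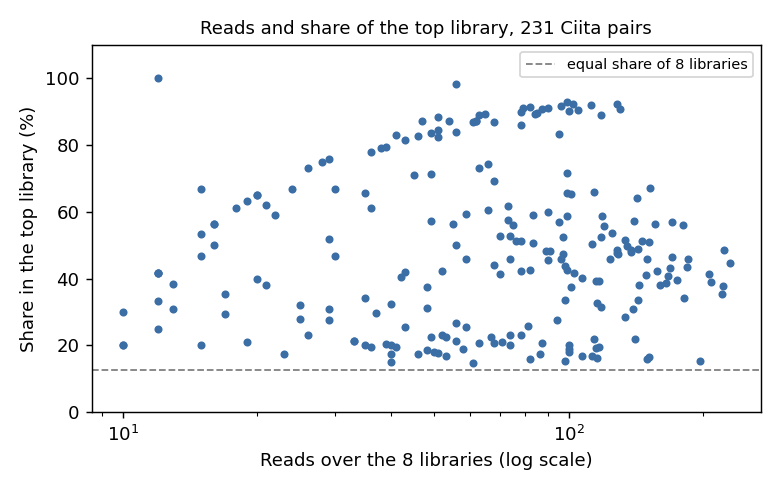
Share of a pair's reads in the library that held the most (y axis, percent) against its reads over the 8 libraries (x axis, log scale), one point per Ciita pair; the dashed line is the even share of 12.5%. Points run from 14.8% to 100%, and the 23 pairs with over 150 reads run from 15.2% to 67.1%.

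The even pairs were led by Met. Bait Ciita_2 read its intronic fragment 30, 25, 20 and 22 times in the control-named and 22, 27, 25 and 26 times in the IFNγ-named libraries, 197 in all, with 15.2% in the top library. The groups overlapped and the log2 difference was 0.20 (SE 0.44, edgeR adjusted p = 0.766). The authors' score, a measure of how far a pair's reads exceed the modelled background, was 108 in both tables. Bait Ciita_1 had a partner 69.6 kb away from the Met fragment, with 17, 18, 13 and 15 control-named and 62, 17, 16 and 23 IFNγ-named reads. It was 1 of 3 places where partners lay within 100 kb of each other. The others were 55.5 kb apart in Agbl4 (both Ciita_3) and 95.9 kb apart at Rere (Ciita_3 and Ciita_2).

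Jpt2 was similarly even, with 10, 10, 10 and 13 control-named and 8, 12, 9 and 10 IFNγ-named reads of Ciita_1. An intron of Snx24, a sorting nexin, on chromosome 18 had 15, 15, 8 and 10 control-named and 11, 15, 13 and 11 IFNγ-named reads of Ciita_2. An intergenic fragment on chromosome 5, 178 kb from the start site of Rnf32, had 61 reads of Ciita_2, between 5 and 9 in each library. Another on chromosome 13, 83.0 kb from that of Phf2, had 40 reads of Ciita_1, between 3 and 6 in each library. These 5 are the most even of the pairs with 40 or more reads. None lay within 1 kb of a start site, as did 16.0% of all 231 partners, and with 5 pairs nothing is read from this.

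Of the 15 most-read partners, 5 for each bait, 7 were intergenic, 7 intronic and 1 touched an exon. For Ciita_3 the leading partner was an intron of Pot1a, which encodes a telomere-binding protein, on chromosome 6 (25766565 to 25767470), with 28, 26, 11 and 12 control-named and 12, 103, 16 and 22 IFNγ-named reads. For Ciita_1 it was an intron of Ppfia2, a liprin of synapses, on chromosome 10 (106680155 to 106680540), with 19, 30, 14 and 78 control-named and 16, 18, 17 and 29 IFNγ-named reads. For Ciita_2 it was an intergenic fragment on chromosome 14 (70087799 to 70088374), 9.06 kb from the start site of Egr3, an immediate-early transcription factor, with 21, 22, 17 and 11 control-named and 10, 85, 21 and 19 IFNγ-named reads. In each, 1 library exceeded the next by far. Those in genes also included an exon of Col9a3, a chain of type IX collagen (184 reads of Ciita_1), an intron of Rasgrf2, a Ras exchange factor (167 reads of Ciita_2), and an intron of Rere, a transcriptional corepressor (158 reads of Ciita_2).

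**Figure D5:**
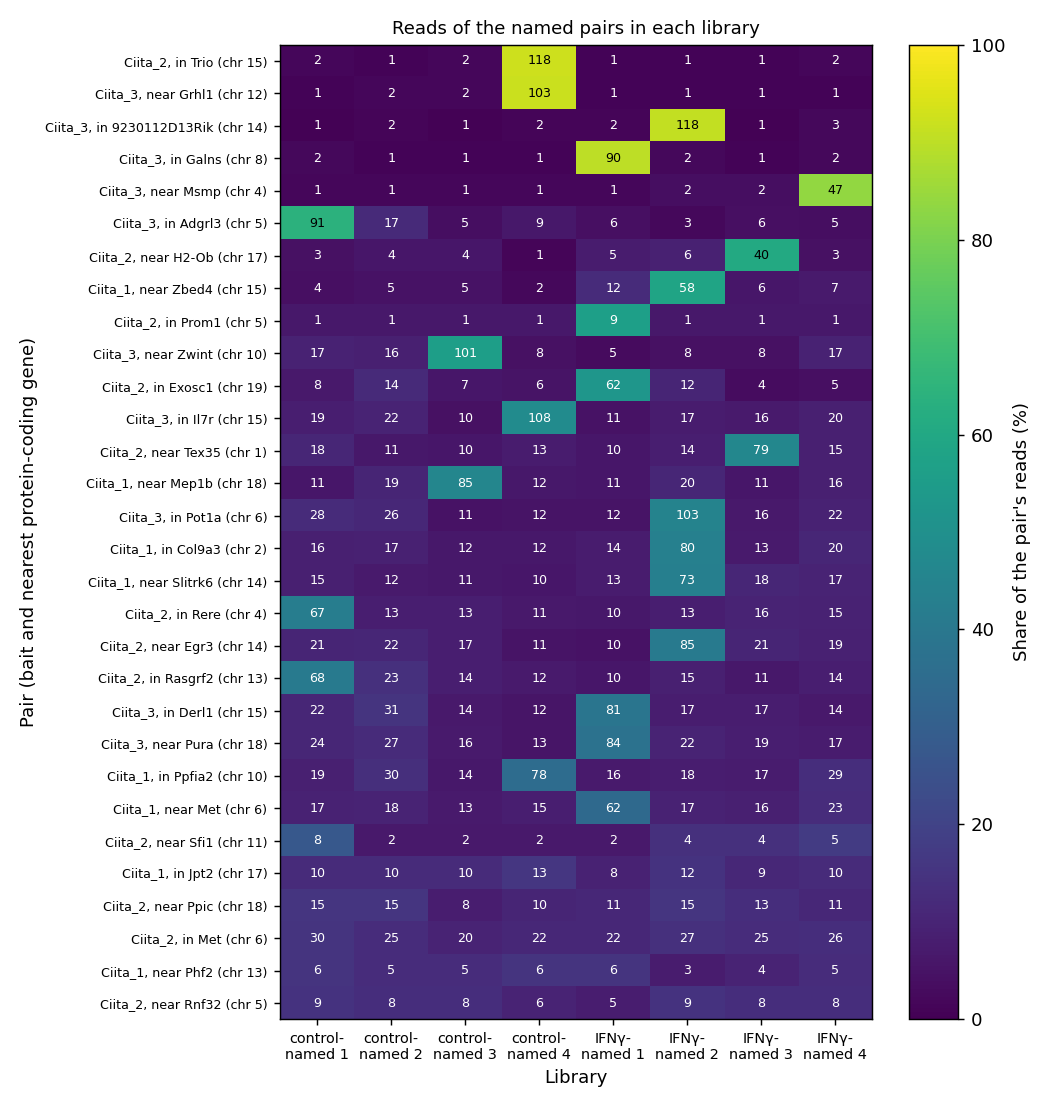
Reads of the 30 named pairs (rows) in each of the 8 libraries (columns); numbers are reads, colour is the share of the pair's reads in percent, and rows run from the most uneven to the most even. Trio, at the top, has 118 of 128 reads in 1 library, while Met, near the bottom, has 20 to 30 in each.

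The next comparison asked whether single pairs differed between the tables. edgeR's quasi-likelihood test, fitted on all 3673 pairs with 10 or more reads, called 0 of 3673 (0%) and 0 of the 231 at an adjusted p of 0.05, with a smallest adjusted p of 0.282. DESeq2 also called 0. With no minimum of reads, edgeR called 29 of the 231 (12.6%) and 168 of 30435 pairs (0.552%). At an unadjusted p of 0.05, edgeR found 50 of the 231 pairs (21.6%; 28 higher in the IFNγ-named table, 22 in the control-named) and 16.7% of all pairs tested. DESeq2 found 13 of the 231 (5.63%), below the 7.46% of all pairs, so the order of pairs and background turned with the tool. DESeq2 gave no p to some uneven pairs, those at Galns and 9230112D13Rik and near Grhl1 and Msmp among them. Pairs without a p counted as not found but stayed in the totals, so the shares of both tools do not rest on the same pairs. Of the 50 pairs found by edgeR, 47 had over 50% of their reads in 1 library, and all 50 were higher in the table of their top library. With over 50% in 1 library that direction nearly follows from the share, so it is no separate result. None of the 50 evenest pairs was among those found by edgeR. The median log2 difference of the 231 was 0.24, against -0.05 over all pairs, and it changed sign to -0.032 without IFNγ-named replicate 3 and to -0.011 without IFNγ-named replicate 4. The biological coefficient of variation over all pairs was 0.793, a spread at which a count of 0 does not show that the pairs were alike.

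The 5 pairs with the smallest edgeR p show what that rests on. Galns, which encodes a lysosomal sulfatase, had an intronic partner of Ciita_3 on chromosome 8 with 2, 1, 1 and 1 control-named and 90, 2, 1 and 2 IFNγ-named reads (log2 difference 4.54, SE 1.54). An intron of 9230112D13Rik on chromosome 14 had 118 of 130 reads of Ciita_3 in IFNγ-named library 2. The partner near Grhl1, an epithelial transcription factor, on chromosome 12 had 103 of 112 reads in control-named library 4. The partner near Msmp on chromosome 4 had 47 of 56 reads in IFNγ-named library 4. A fragment 3.83 kb from the start site of Zbed4 on chromosome 15 had 4, 5, 5 and 2 control-named and 12, 58, 6 and 7 IFNγ-named reads of Ciita_1 (log2 difference 2.47, SE 0.81). Here the groups did not overlap, but the pair was picked by its small p, so this is no separate result. How many of all pairs separate in this way was not counted. Without IFNγ-named replicate 2 the Zbed4 difference was 1.23, and that of 9230112D13Rik went from 4.30 to 0.53. The Galns difference was 0.47 without IFNγ-named replicate 1. The edgeR adjusted p of each was 0.282.

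The authors' scores, computed on the 4 libraries of a table together, passed 5 for 161 of the 231 pairs in the control-named table, where 36.0% of all 3673 pairs did. Of the 231, 160 passed in the IFNγ-named table, as did 31.8% of all pairs. Both sets were chosen by reads, which the score also uses. The 3673 also hold pairs within one chromosome, so nothing is read from the excess over all pairs. Both tables passed 123 pairs, 76.4% of the control-named and 76.9% of the IFNγ-named calls, and 33 pairs passed in neither. Of the 75 called in 1 table only, 60 had over 50% of their reads in 1 library. Over all 3673 pairs, 679 passed in both tables (51.3% of the control-named and 58.2% of the IFNγ-named calls), and 1132 (30.8%, against 32.5% of the 231) in 1 table only, of which 769 (67.9%) had over 50% in 1 library. Of the other baits' 793 pairs, 397 passed in the first of these tables and 317 in the second. Of the 36 pairs with over 80% of their reads in 1 library, 0 passed in both tables. Such pairs leave few reads to the other table, so this largely follows from their unevenness.

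The genes that CIITA is known to act on were not among the start sites reached. Of 18 genes of the MHC class II pathway off chromosome 16, 0 had a partner within 1 kb of a start site or within the gene. Over all 8 gene lists (class II, class I, IFNγ signalling, interferon-induced effectors, stem cell, differentiated epithelium, other cell types of the gut, housekeeping) the counts were 0 of 119 at a start site and 1 of 119 within a gene. Of all 21249 protein-coding genes off chromosome 16, 27 (0.127%) and 121 (0.569%) had one, and the lists' counts of 0 and 1 are near that background. Within 100 kb of a partner lay 16 of the 119, against 3.18% of all protein-coding genes.

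Of those 16, 12 lay around 1 fragment. The class II cluster (chromosome 17, 34092340 to 34341412) spans 249 kb and 9 genes of the class II list. Its 1 listed Ciita pair, the Ciita_2 contact whose sequence is shown above, was singled out after its values were seen. It had 3, 4, 4 and 1 control-named and 5, 6, 40 and 3 IFNγ-named reads. IFNγ-named library 3 held 60.6% of its 66 reads, and the other 7 libraries had 1 to 6. The authors' score was 43.7 in the IFNγ-named table and 0 in the control-named one. The log2 difference was 2.30 (SE 0.90, edgeR adjusted p = 0.282), and it fell to 0.77 without IFNγ-named replicate 3. The 8 class II genes within 100 kb (H2-Aa, H2-Ab1, H2-DMa, H2-DMb1, H2-DMb2, H2-Eb1, H2-Eb2 and H2-Ob) and the class I genes Psmb8, Psmb9, Tap1 and Tap2 are counted from this fragment.

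The 1 list gene that held a partner was Prom1, a membrane glycoprotein used as a stem cell marker, also named after its values were seen. Its intronic partner of Ciita_2 on chromosome 5 (44086615 to 44086821) had 1 read in each of 7 libraries and 9 in IFNγ-named library 1. List genes within 100 kb of a partner also included Ifit1 and Ifit3, which are interferon-induced.

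Few partner fragments reached 10 reads with more than 1 bait, and few lay close to each other. The 231 pairs had 231 distinct partner fragments, and 0 fragments were partners of more than 1 Ciita bait. Any read with another Ciita bait was seen for 20 of them, and any read with a bait outside Ciita for 41. How often fragments at large were read by more than 1 bait was not worked out, so these counts have no background beside them. A single fragment also reached 10 reads with another bait: the partner of Ciita_2 on chromosome 11 (3194057 to 3194589), within Drg1 and 0.594 kb from the start site of Sfi1, had 29 Ciita_2 reads and 12 of the Sox2 bait. It too was named after its values were seen. None of the 231 had another partner within 10 kb, and 7 (3.03%, 1.48 to 6.12) had any other listed pair of the same bait within 10 kb, against 4.31% of single-read pairs. A stretch of 20 identical bases shared with the bait was found in 0 of the 231 and in 1 of 6248 single-read pairs (0.016%). The count of 0 is near that background, so nothing is read from it.

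Reads at start sites were also compared as a share of all Ciita reads on other chromosomes. The control-named libraries gave 16.4%, 10.2%, 10.8% and 17.3% and the IFNγ-named libraries 15.9%, 10.5%, 12.1% and 12.05%. The groups overlapped, with means of 13.7% ± 3.70 and 12.6% ± 2.29 (SD, n = 4 each; two-sided exact permutation p = 0.743).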

How the data were processed

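Capture-C libraries of aged mouse organoids were analysed from the 2 tables that the authors deposited. Per the submitters' processing notes, Bowtie2 and the build mm10 were used; other tools, and whether duplicates were removed, are not given in the sources used. Per the file headers, each table lists fragment pairs with read counts of 4 libraries, a modelled background signal and a contact score, as deposited by the authors. Tables were joined by fragment number, and a pair absent from one got counts of 0 there.

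All 28282 fragments on assembled chromosomes were checked against GRCm38: 100% began at GATC. Genes came from GENCODE for that build, and repeat masking from the RefSeq sequence. Genome-wide shares used fragments of at least 101 bp.

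Counts were tested with edgeR 4.0.16 (quasi-likelihood, TMM, Benjamini-Hochberg), under R 4.3.3, and again with DESeq2 1.42.0. The edgeR step was tested on simulated data, where at the tables' own spread most changes were missed. DESeq2 gave 359 adjusted p-values as NA, and pairs without a p-value were counted as not passing. Shares were compared by exact permutation in scipy 1.17.1. Intervals cover counting error only, since the reads carry no molecular identifiers and may repeat one molecule.

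Members and gene lists were chosen with earlier results of these data known. Named pairs are, by rule: the 5 with most reads per bait; the 5 smallest edgeR p; fragments shared by Ciita baits; the 5 most even with 40 or more reads; those within 1 kb of a list gene's start site; and the 5 most-read at protein-coding start sites. Others are marked as named after their values were seen. Alternatives covered count filters, normalization, score threshold, start-site window and left-out libraries.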

Additional observations from a re-analysis of the deposited data

Results flagged for a closer look

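A library was singled out where it stood far from the other 3 of its table, by Dixon's test at 95%. For normally distributed values, chance alone flags about 1 in 20 groups of 4, which is 2.3 of the 46 groups of shares. Among those shares 5 were found. Among the 60 groups of reads of named pairs 27 were found, but that rate does not hold for small counts. In a group such as 1, 1, 1 and 2 the differing count is always flagged, so nothing is read from the 27. The named pairs were also partly chosen by reads or by a small edgeR p, and the test is not adjusted.

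Among shares of Ciita's interchromosomal reads, control-named library 4 was high for chromosome 12 (7.16%, the others at most 3.19%). Control-named library 3 was high for chromosome 17 (7.92%), chromosome 18 (11.1%) and chromosome 19 (3.08%). IFNγ-named library 2 was high for chromosome 14 (10.5%).

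Among the named pairs of Ciita_1, IFNγ-named library 2 was high near Slitrk6 (73 reads), near Zbed4 (58) and at Col9a3 (80). IFNγ-named library 1 was high in the pair near Met (62), IFNγ-named library 4 at Ppfia2 (29), control-named library 3 near Mep1b (85) and control-named library 4 at Jpt2 (13 reads, where the others of its table had 10 each).

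Among those of Ciita_2, IFNγ-named library 1 was high at Exosc1 (62) and Prom1 (9), IFNγ-named library 2 near Egr3 (85), and IFNγ-named library 3 near Tex35 (79) and near H2-Ob (40). Control-named library 1 was high at Rere (67) and near Sfi1 (8). The Trio pair had 118 reads in control-named library 4. Its IFNγ-named library 4 was flagged too, with 2 reads where the others of its table had 1 each.

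Among those of Ciita_3, IFNγ-named library 1 was high at Derl1 (81), near Pura (84) and at Galns (90). At Galns, control-named library 1 was flagged too, with 2 reads where the others of its table had 1 each. IFNγ-named library 2 was high at Pot1a (103) and 9230112D13Rik (118), and IFNγ-named library 4 near Msmp (47). Control-named library 1 was high at Adgrl3 (91), control-named library 3 near Zwint (101), and control-named library 4 at Il7r (108) and near Grhl1 (103).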

How the results depend on the processing

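No paired analysis was possible because the count columns name no mouse or passage. With no minimum of reads, edgeR tested 30435 pairs and called 29 of the 231 (12.6%) rather than 0, and 168 (0.552%) of all pairs; the other alternatives run, DESeq2 and each library left out included, called 0. DESeq2 found 13 pairs at an unadjusted p of 0.05 rather than 50 (5.63% against 7.46% of all pairs). Pairs to which DESeq2 gave no p count as not found there. Leaving out a library gave 28 to 35 with edgeR (12.7% to 15.7%, against 10.5% to 14.1% of all pairs). The number of pairs ranged from 218 to 224 with a library left out and was 173 by reads outside the top library, an alternative chosen after seeing the data. The share of partners in a gene was 51.9% for protein-coding genes. The share within 1 kb of a start site was 4.33% for sites inside the fragment, 33.8% within 5 kb and 11.3% for protein-coding sites. With a library left out, the difference between tables ran from 0.841 to 5.70 percentage points for Ciita_1, from 3.66 to 7.37 for Ciita_2 (the highest without control-named replicate 3), from -0.0305 to 5.86 for Ciita_3 (reversed without IFNγ-named replicate 4) and from -2.21 to 0.154 for reads at start sites (reversed without control-named replicate 4). The difference between Ciita and the other baits ran from 2.02 to 3.30. The cause of these changes was not tested. Leaving out a control-named or IFNγ-named library leaves 3 against 4, whose smallest exact p is 0.0571. Single-read pairs and 4 libraries a table limit what can be seen.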
